A study of Mus musculus with 2 samples.

Results

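The 36 genes described here encode aminoacyl-tRNA synthetases, the enzymes that join each amino acid to its tRNA before the ribosome can use it. They were taken by name, 20 enzymes of the cytosol and 16 of mitochondria, from the 27321 genes listed in either gene table, and all 36 are listed in both tables. Gene symbols are those of Gencode vM21, except that Mars1, the cytosolic methionyl-tRNA synthetase, is listed there as Mars. The rule that lists them uses no measured value.

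A synthetase recognises 1 amino acid and the tRNAs that read its codons, and uses ATP to form the bond between them. Most cytosolic and mitochondrial enzymes are made from separate nuclear genes, but Gars and Kars each supply both compartments, and Eprs carries the glutamyl and the prolyl activity in 1 polypeptide. In the cytosol, Eprs, Iars, Lars, Mars1, Qars, Rars, Kars and Dars sit in a multisynthetase complex held together by the scaffold proteins Aimp1, Aimp2 and Eef1e1. Several cytosolic synthetase genes are known targets of Atf4, the transcription factor induced when amino acids are short.

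The cells were mouse muscle stem cells (MuSCs), the satellite cells that rebuild skeletal muscle, from Pax7creERT2R26-eYFPfl/fl mice on a C57BL6 background. In these mice tamoxifen (100 µL at 20 mg/ml daily, at 3 months of age) switched on YFP in cells with Pax7-driven Cre, so the sort on YFP kept the cells that had expressed Pax7. Quiescent cells came from uninjured muscle and activated cells from muscle taken 72 h after 40 µL of 1.2% barium chloride, and both were loaded into 1 capture of the 10x Chromium system. The droplets were split in unequal amounts: the 10% aliquot was read on both Illumina and nanopore instruments, and the 90% aliquot on Illumina alone. The tables carry no label for whether a barcode came from uninjured or injured muscle, so that comparison was not made. There were no replicates, and all intervals below cover counting error only. How many mice were pooled was not given in the sources used here.

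Barcodes were compared by depth and by 3 genes of dividing cells. Barcodes with 3000 to 15000 UMIs and 0 UMIs of Rrm2, Top2a and Cdk1 are called shallow, and barcodes with at least 20000 UMIs are called deep. The 10% aliquot held 157 shallow barcodes (median 6729 UMIs) and 79 deep barcodes (median 65499 UMIs). The 90% aliquot held 1243 shallow barcodes (median 4680 UMIs) and 606 deep barcodes (median 47106 UMIs). Levels are the summed UMIs of a gene in a class per 1000000 UMIs of that class (CPM), with exact Poisson intervals, and ratios carry exact conditional binomial 95% intervals.

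The aliquots were not separate sets of barcodes. All 269 barcodes of the 10% aliquot with at least 3000 UMIs were also in the 90% table, where they had a median of 0.814 times as many UMIs. The expression of a deep barcode in the 2 tables had a median correlation of r = 0.962 over 20506 genes, against 0.822 for different deep barcodes. Of the 90% aliquot, 243 shallow and 207 deep barcodes were shared in this way, and 5 shallow barcodes of the 10% aliquot were deep there. Sums, lists and the enzymes that turned on it are therefore also given for the barcodes of the 90% aliquot that the 10% table does not hold, 1000 shallow and 399 deep, called unshared below. Leaving the shared barcodes out moved the fold of a synthetase by a median of 1.06 times and at most by 1.59 times, for Wars2, and changed no call.

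Shallow barcodes were not only smaller. Their summed level of 12 muscle stem cell markers was 1716 CPM in the 10% aliquot and 2160 CPM in unshared barcodes of the 90% aliquot, against 546 and 679 CPM in deep barcodes. Of these 12 markers 10 were higher in shallow barcodes, among them Pax7 at 27.8 against 12.2 CPM in the 10% aliquot, while Itga7 (34.1 against 58.4 CPM) and Des (253 against 323 CPM) were higher in deep barcodes. Myod1, a factor of activated cells, was at 1106 CPM in shallow and 185 CPM in deep barcodes. The cycle genes outside the rule, Mki67, Ccnb1 and Ccna2, went the other way, at 0.897, 0.897 and 3.59 CPM in shallow and 30.8, 46.3 and 63.7 CPM in deep barcodes. The markers of differentiating cells, Myog, Mymk and Myh3, summed to 1.79 and 44.3 CPM. The stress genes Fos, Egr1, Jun, Ier2 and Atf3 summed to 1171 CPM in shallow and 274 CPM in deep barcodes, and to 1815 and 257 CPM in unshared barcodes of the 90% aliquot. The 10 immune markers summed to 352 and 111 CPM in the 10% aliquot, with Ptprc at 0 in shallow barcodes, and to 270.1 and 5.36 CPM in unshared barcodes, again with Ptprc at 0 in shallow ones. Few barcodes had at least 3 immune UMIs: 1 of 157 shallow and 4 of 79 deep in the 10% aliquot. Among unshared barcodes they were 9 of 1000 shallow and 4 of 399 deep. The 4 fibroblast markers summed to 0.897 and 5.10 CPM in the 10% aliquot and to 31.8 and 0.758 CPM in unshared barcodes, with Pdgfra and Pi16 at 0 in shallow barcodes of both. The part of the stress genes in the synthetase differences was not tested, and without the barcodes with at least 3 immune UMIs each cytosolic call below was the same.

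The summed level of the 20 cytosolic enzymes differed little between the classes, while single enzymes differed up to 6.68-fold in opposite directions. The sum was 1007 CPM in shallow and 841 CPM in deep barcodes of the 10% aliquot, a deep to shallow ratio of 0.835 (0.782 to 0.893). It was 928 and 880.4 CPM in the 90% aliquot (ratio 0.948, 0.922 to 0.975). In unshared barcodes it was 888 and 862 CPM (ratio 0.971, 0.939 to 1.00), so the interval reached 1 there. The median barcode had a cytosolic synthetase level of 874.5 CPM among shallow and 818.2 CPM among deep barcodes of the 10% aliquot, and 787 and 836.3 CPM among unshared barcodes, and the ranges of the classes overlapped widely.

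**Figure D1:**
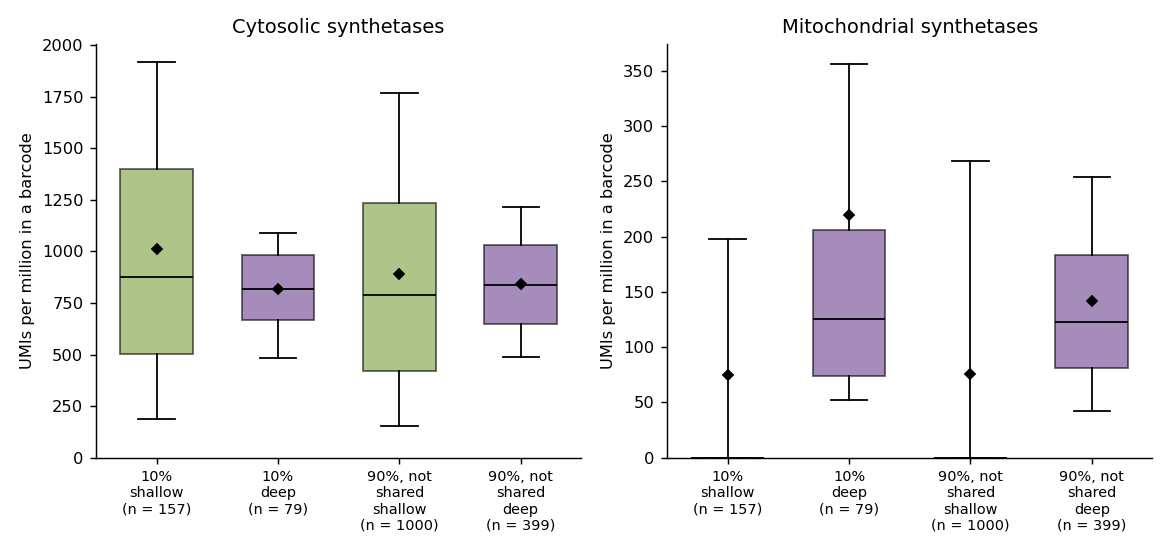
Box plots of the level (CPM) of the 20 cytosolic (left) and 16 mitochondrial (right) synthetases in each barcode, for shallow and deep barcodes of the 10% aliquot and unshared barcodes of the 90% aliquot. Lines are medians, boxes quartiles, whiskers the 10th to 90th percentile and diamonds means; the cytosolic boxes overlap, while the mitochondrial median of shallow barcodes is 0.

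A cytosolic enzyme was called different when it was at least 1.5-fold higher in the same class in both aliquots, with at least 20 UMIs over both classes in each. By this rule 8 of 20 were higher in deep barcodes (Dars, Farsb, Kars, Mars1, Qars, Rars, Vars and Wars), beside 36.4% of the 10072 genes that met the same minimum. Another 5 of 20 were higher in shallow barcodes (Aars, Cars, Eprs, Nars and Yars), beside 19.4% of all genes. The remaining 7 (Farsa, Gars, Hars, Iars, Lars, Sars and Tars) met neither. The share called was thus close to that of all genes in either direction. The median log2 difference of the 20 enzymes, deep minus shallow, was 0.33 in the 10% and 0.32 in the 90% aliquot, against 0.28 and 0.33 over all genes tested. The calls were the same enzymes with unshared barcodes in place of the whole 90% aliquot.

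**Figure D2:**
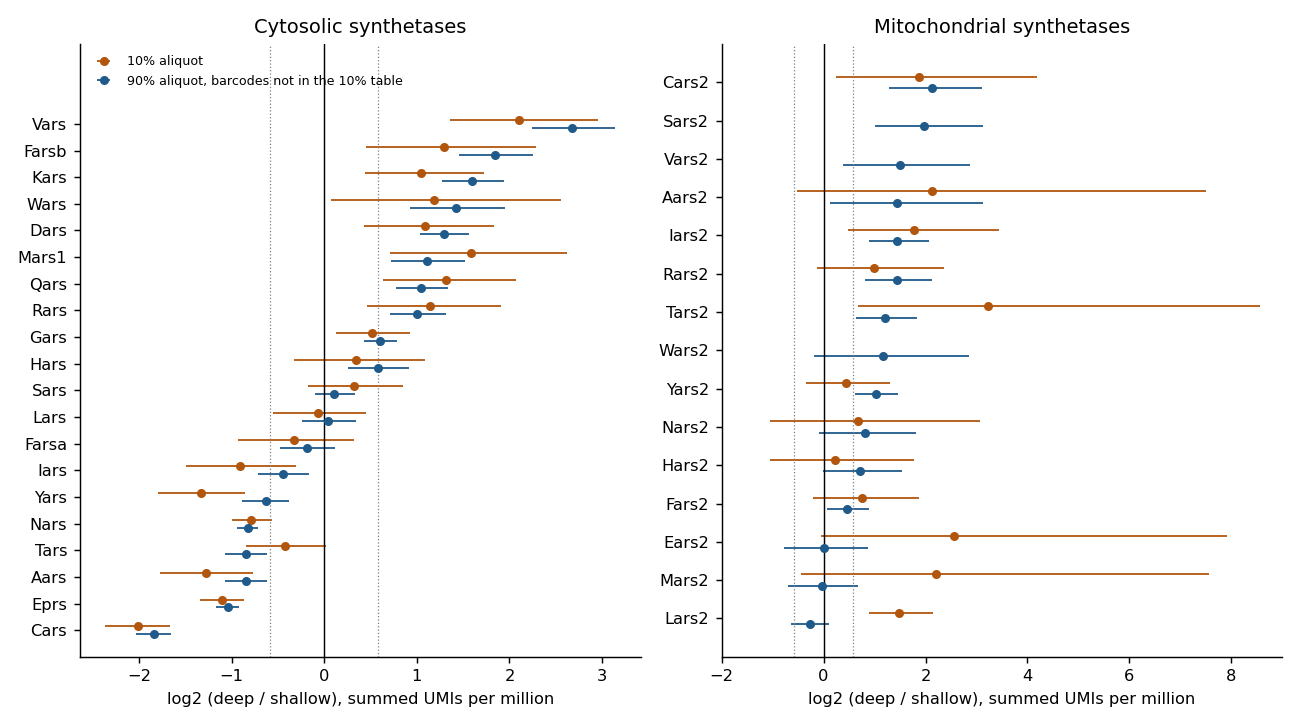
Log2 ratio of levels (CPM), deep over shallow barcodes, for the 20 cytosolic enzymes and the 15 mitochondrial enzymes with at least 20 UMIs in the 10% aliquot or in unshared barcodes of the 90% aliquot, with exact 95% counting intervals. Dotted lines mark 1.5-fold; the cytosolic enzymes run from Vars, highest in deep barcodes, to Cars, highest in shallow barcodes, and a missing point is a set with too few UMIs or with 0 UMIs in shallow barcodes.

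Vars, the valyl-tRNA synthetase, had the largest difference of the cytosolic enzymes (chr17:35000987-35016322, plus strand). It was at 13.5 CPM (15 UMIs) in shallow and 57.7 CPM in deep barcodes of the 10% aliquot, higher by 4.28-fold (2.56 to 7.75). In the 90% aliquot it was at 8.68 and 58.0 CPM, higher by 6.68-fold (5.12 to 8.88), and by 6.40-fold (4.75 to 8.82) in unshared barcodes. These ratios lay at the 86.6th percentile of all genes tested in the 10% and the 94.8th in the 90% aliquot. Barcodes of 3000 to 15000 UMIs with a UMI of Rrm2, Top2a or Cdk1 are not in the shallow class. They had Vars at 108.6 CPM (17 UMIs) in the 10% aliquot and 52.1 CPM among unshared barcodes, where shallow ones had 8.94 CPM. Deep barcodes without such a UMI had it at 28.5 CPM (8 UMIs) and 37.1 CPM. The classes thus differ in these genes and in depth, and the part of each was not tested. Farsb, the beta subunit of the phenylalanyl enzyme, was at 10.8 and 26.5 CPM in the 10% aliquot (2.46-fold, 1.36 to 4.88) and at 11.9 and 40.0 CPM in the 90% aliquot (3.35-fold, 2.66 to 4.28). Its partner Farsa, the alpha subunit, did not differ by 1.5-fold, with 26.0 and 20.8 CPM (0.799-fold, 0.526 to 1.25) and 24.5 and 23.1 CPM (0.943-fold, 0.792 to 1.13). The subunits work as a dimer of dimers, and their intervals did not overlap in either aliquot.

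Of the 8 synthetases of the multisynthetase complex, 5 were higher in deep barcodes, beside the 36.4% of all genes. Kars, the lysyl enzyme, was at 21.5 and 44.5 CPM in the 10% aliquot (2.07-fold, 1.35 to 3.29) and at 17.1 and 49.2 CPM in the 90% aliquot (2.89-fold, 2.38 to 3.54). Dars, the aspartyl enzyme, was at 17.9 and 38.2 CPM (2.13-fold, 1.34 to 3.57) and at 26.5 and 60.9 CPM (2.30-fold, 1.96 to 2.70). Qars, the glutaminyl enzyme, was at 17.1 and 42.4 CPM (2.48-fold, 1.55 to 4.21) and at 21.7 and 48.5 CPM (2.23-fold, 1.88 to 2.68). These 3 enzymes were 2.07-fold to 2.89-fold higher in deep barcodes over both aliquots. Rars, the arginyl enzyme, was at 17.1 and 37.6 CPM (2.21-fold, 1.38 to 3.75) and at 20.5 and 41.8 CPM (2.04-fold, 1.71 to 2.46). Mars1 was at 9.87 (11 UMIs) and 29.6 CPM (3.00-fold, 1.63 to 6.14) and at 11.8 and 27.1 CPM (2.30-fold, 1.82 to 2.95). The annotated end of Mars1 overlaps that of Ddit3 on the opposite strand, and Ddit3 went the other way. Outside the complex, Wars, the tryptophanyl enzyme, was at 6.28 (7 UMIs) and 14.3 CPM (2.28-fold, 1.05 to 5.87) and at 7.13 and 18.7 CPM (2.62-fold, 1.94 to 3.62).

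Eprs, also of the complex, went the other way. It was at 196 CPM in shallow and 91.4 CPM in deep barcodes of the 10% aliquot, higher in shallow barcodes by 2.15-fold (1.82 to 2.53). The 90% aliquot had it at 171 and 80.9 CPM, a 2.11-fold (1.96 to 2.27) difference. The other 2 synthetases of the complex met neither limit. Iars, the isoleucyl enzyme, was at 31.4 and 16.7 CPM (higher in shallow barcodes by 1.88-fold, 1.23 to 2.82) and at 31.9 and 22.5 CPM (1.42-fold, 1.21 to 1.66). Lars, the leucyl enzyme, was at 38.6 and 36.9 CPM (0.956-fold, deep over shallow, 0.683 to 1.36) and at 28.1 and 27.3 CPM (0.974-fold, deep over shallow, 0.828 to 1.15). Eprs held the most UMIs of the 8, and their summed level was close in the classes, with a deep to shallow ratio of 0.964 (0.863 to 1.08) in the 10% aliquot, 1.09 in the 90% aliquot and 1.13 in unshared barcodes. The 12 enzymes outside the complex summed to ratios of 0.766, 0.870 and 0.883.

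The other enzymes higher in shallow barcodes all lie outside the complex. Cars, the cysteinyl enzyme (chr7:143557230-143600090, minus strand), was furthest apart, at 117 CPM in shallow and 28.8 CPM in deep barcodes of the 10% aliquot, higher by 4.05-fold (3.17 to 5.16). It was at 92.8 and 27.2 CPM in the 90% aliquot, higher by 3.41-fold (3.06 to 3.79). Nars, the asparaginyl enzyme, held the most UMIs of the 20 in both classes, at 219.8 and 127 CPM (1.73-fold, 1.49 to 2.0) in the 10% aliquot and 192 and 107 CPM (1.79-fold, 1.68 to 1.91) in the 90% aliquot. Yars, the tyrosyl enzyme (chr4:129189760-129219607, plus strand), was at 53.8 and 21.4 CPM (2.52-fold, 1.81 to 3.48) and at 41.9 and 24.4 CPM (1.72-fold, 1.49 to 1.98). Aars, the alanyl enzyme (chr8:111033144-111057664, plus strand), was at 46.7 and 19.2 CPM (2.43-fold, 1.7 to 3.43) and at 47.4 and 25.6 CPM (1.85-fold, 1.62 to 2.12). Aars shares its annotated end with Exosc6 on the same strand, so its reads may be divided between them.

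After thinning every barcode to 3000 UMIs, Nars was expected in 41.8% of shallow and 29.9% of deep barcodes of the 10% aliquot, against 61.8% and 100% of barcodes without thinning. Cars was expected in 27% and 7.74%, and Vars in 2.86% and 14.2%. These thinned shares ran in the same direction as the CPM. The 1612 barcodes of the 10% aliquot with under 500 UMIs, of which 170 were shallow or deep barcodes of the 90% table and the rest may hold free RNA, were at 161 CPM for Nars (8 UMIs), 40.2 CPM for Cars (2 UMIs) and 60.4 CPM for Vars (3 UMIs).

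The last enzymes met neither limit. Gars, the glycyl enzyme, was at 55.6 and 79.6 CPM in the 10% aliquot (1.43-fold, 1.09 to 1.90) and at 60.9 and 93.8 CPM in the 90% aliquot (1.54-fold, 1.39 to 1.72), just under the limit in the first and just over it in the second. Hars, the histidyl enzyme, was at 18.8 and 23.9 CPM (1.27-fold, 0.795 to 2.12) and at 18.6 and 27.4 CPM (1.47-fold, 1.21 to 1.80). Hars and Hars2 overlap on opposite strands, as do Yars and C77080 at their ends, and whether the short-read counting used strand was not given in the sources used here. Sars, the seryl enzyme, was at 35 and 43.7 CPM (1.25-fold, 0.886 to 1.80) and at 44.0 and 46.9 CPM (1.06-fold, 0.937 to 1.22). Tars, the threonyl enzyme, was at 53.8 and 40.2 CPM (higher in shallow barcodes by 1.34-fold, 0.987 to 1.79) and at 50.1 and 29.8 CPM (1.68-fold, 1.47 to 1.91), past the limit only in the 90% aliquot.

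The mitochondrial enzymes were higher in deep barcodes as a group. Their sum was 71.8 CPM (80 UMIs) in shallow and 179 CPM in deep barcodes of the 10% aliquot, a ratio of 2.49 (1.98 to 3.17). It was 72.7 and 144 CPM in the 90% aliquot (ratio 1.98, 1.80 to 2.18), and 77.3 and 138 CPM in unshared barcodes (ratio 1.79, 1.61 to 2.0). No UMI of any of the 16 genes was seen in 120 of 157 shallow and 2 of 79 deep barcodes of the 10% aliquot, nor in 785 of 1000 shallow and 15 of 399 deep unshared barcodes. At the thinned depth of 3000 UMIs a mitochondrial synthetase UMI was expected in 13.5% of shallow and 36.2% of deep barcodes of the 10% aliquot, against 23.6% and 97.5% without thinning. The barcodes under 500 UMIs were at 583.5 CPM (29 UMIs), above both classes, with 8.51% of their UMIs from the mitochondrial genome against 0.883% in shallow and 0.881% in deep barcodes.

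Of the 16, 13 met the minimum of 20 UMIs in both aliquots, and 7 of these were at least 1.5-fold higher in deep barcodes in both (Aars2, Cars2, Iars2, Nars2, Rars2, Sars2 and Tars2), beside the 36.4% of all genes. None of the 13 was higher in shallow barcodes. Ears2, Fars2, Hars2, Lars2, Mars2 and Yars2 met neither limit, and Pars2, Vars2 and Wars2 had too few UMIs. Their median log2 difference, deep minus shallow, was 1.77 in the 10% aliquot (1.49 with Sars2 at the floor given below) and 0.92 in the 90% aliquot. Mitochondrial members with few UMIs in the smaller shallow class pass the minimum through their deep UMIs, so these counts and medians describe the genes that passed and not all 16.

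Iars2, the mitochondrial isoleucyl enzyme, was at 4.49 CPM (5 UMIs) in shallow and 15.3 CPM in deep barcodes of the 10% aliquot (3.41-fold, 1.40 to 10.8), and at 5.27 and 15.4 CPM in the 90% aliquot (2.93-fold, 2.07 to 4.28). Its cytosolic counterpart Iars had gone the other way in both. Rars2, the arginyl enzyme, was at 6.28 and 12.6 CPM (2.0-fold, 0.916 to 5.17) and at 4.65 and 12.4 CPM (2.68-fold, 1.84 to 4.03). Cars2, the cysteinyl enzyme, was at 2.69 CPM (3 UMIs) and 9.80 CPM (3.64-fold, 1.18 to 18.3) and at 2.17 and 11.5 CPM (5.31-fold, 3.12 to 9.81). Cars2 thus differed in the opposite direction from Cars, the enzyme of the same amino acid in the cytosol, with both intervals clear of 1. Tars2, the threonyl enzyme, was at 0.897 CPM (1 UMI) and 8.43 CPM (9.40-fold, 1.60 to 379.7) and at 4.65 and 13.1 CPM (2.81-fold, 1.94 to 4.22).

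Sars2, the seryl enzyme, had 0 UMIs in shallow barcodes of the 10% aliquot and 4.51 CPM in deep barcodes. Against a floor of 3 counts, 2.69 CPM, it was at least 1.68-fold higher, while the exact interval of the ratio started at 1.26, under the limit of the call. In the 90% aliquot it was at 1.71 and 7.70 CPM (4.52-fold, 2.48 to 9.17). Aars2, the alanyl enzyme, was at 0.897 CPM (1 UMI) and 3.92 CPM (4.37-fold, 0.699 to 181) and at 1.24 and 3.18 CPM (2.56-fold, 1.25 to 6.11). Nars2, the asparaginyl enzyme, was at 2.69 and 4.31 CPM (1.60-fold, 0.481 to 8.36) and at 2.63 and 4.59 CPM (1.74-fold, 1.05 to 3.07), and its call was lost with shallow barcodes of 3000 to 10000 UMIs or without the immune barcodes. For Aars2, Nars2 and Rars2 the interval reached 1 in the 10% aliquot. Fars2, the phenylalanyl enzyme, was at 11.0 and 16.1 CPM in the 90% aliquot (1.47-fold, 1.14 to 1.91) and at 8.97 and 15.1 CPM in the 10% aliquot (1.68-fold, 0.868 to 3.65). Yars2, the tyrosyl enzyme, was at 11.3 and 21.4 CPM (1.89-fold, 1.48 to 2.44) and at 14.4 and 19.4 CPM (1.35-fold, 0.793 to 2.46). Fars2 and Yars2 were thus each past the limit in 1 aliquot alone.

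The remaining enzymes had few UMIs. Hars2, the histidyl enzyme, was at 5.38 and 6.28 CPM in the 10% aliquot (1.17-fold, 0.481 to 3.41) and at 3.56 and 5.79 CPM in the 90% aliquot (1.62-fold, 1.05 to 2.63). Ears2, the glutamyl enzyme, had 1 UMI in shallow barcodes of the 10% aliquot and was at 3.41 and 4.38 CPM in the 90% aliquot (1.29-fold, 0.815 to 2.12). Mars2, the methionyl enzyme, also had 1 UMI there, and was at 4.50 and 4.59 CPM in the 90% aliquot (1.02-fold, 0.680 to 1.58). In the 90% aliquot, where the counts were larger, the intervals of Ears2 and Mars2 thus held 1. Pars2, Vars2 and Wars2, the prolyl, valyl and tryptophanyl enzymes, had 0, 0 and 1 UMIs in shallow and 6, 15 and 15 UMIs in deep barcodes of the 10% aliquot. Their UMIs in the 90% aliquot were 2, 8 and 5 in shallow and 28, 112 and 82 in deep barcodes.

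Lars2, the leucyl enzyme (chr9:123366927-123462666, plus strand), held the most UMIs of the 16 in the 10% aliquot, but not in the 90% aliquot, and did not give 1 direction. It was at 22.4 and 63.0 CPM in the 10% aliquot (2.81-fold, 1.87 to 4.40), at 14.3 and 16.3 CPM in the 90% aliquot (1.14-fold, 0.913 to 1.45), and at 16.5 and 13.7 CPM in unshared barcodes (0.830-fold, 0.645 to 1.08). In the 10% aliquot 3 deep barcodes held 64.2% of its 321 UMIs, and 130 were in 1 barcode. The 21 barcodes with 3000 to 15000 UMIs and a UMI of Rrm2, Top2a or Cdk1, which are in neither class, were at 1259 CPM (1089 to 1448), with 90.4% of 197 UMIs in 3 barcodes and 2.63% of all their UMIs from the mitochondrial genome. Barcodes under 500 UMIs were at 382 CPM (19 UMIs). Of its 12 isoforms in the long-read table, 8 ended past the annotated end of the gene at position 123462666, and these held 56.8% of its long-read UMIs in shallow and 76.9% in deep barcodes. Without Lars2 the mitochondrial sum had a ratio of 2.35 (1.78 to 3.16) in the 10% aliquot, 2.18 in the 90% aliquot and 2.05 in unshared barcodes. When those 21 barcodes were added to the shallow class, the ratio in the 10% aliquot was 0.782 with Lars2 and 2.14 (1.66 to 2.79) without it.

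The partners of the synthetases were counted by the same rule. All 3 scaffold proteins of the multisynthetase complex were higher in deep barcodes, beside the 36.4% of all genes, as were members of the next lists. Aimp1 was at 46.7 and 127 CPM in the 10% aliquot (2.71-fold, 2.04 to 3.67) and higher by 2.32-fold (2.03 to 2.66) in unshared barcodes. Aimp2 was at 5.38 and 30 CPM (5.57-fold, 2.50 to 15.4, and 3.61-fold, 2.70 to 4.93 unshared), and Eef1e1 at 39.5 and 65.3 CPM (1.65-fold, 1.21 to 2.32, and 1.53-fold, 1.37 to 1.72 unshared). Of 7 genes of editing and selenocysteine, 4 were tested. Dtd2, a proofreading deacylase, and Pstk, the kinase of Ser-tRNA(Sec), were higher in deep barcodes. Dtd2 and Pstk had 1 and 4 UMIs in shallow barcodes of the 10% aliquot. Of 10 elongation factors, 9 were tested and 6 were higher in deep barcodes. Of these, Tufm, Tsfm, Gfm1 and Gfm2 act in mitochondria and Eef1b2 and Eef1g are exchange factor subunits of the cytosol. The mitochondrial ones had 4, 7, 10 and 3 UMIs in shallow barcodes of the 10% aliquot, and the interval of Gfm2 held 1 (1.75-fold, 0.531 to 9.07). Genes with so few shallow UMIs pass the minimum through their deep UMIs, so these counts describe the genes that passed. None of the genes tested in these lists was higher in shallow barcodes, beside 19.4% of all genes. The other tested cytosolic factors, Eef1a1, Eef2 and Eef1d, met neither limit, at deep to shallow ratios of 0.898, 0.682 and 0.781 in the 10% aliquot.

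The amino acid response genes, which Atf4 switches on or which act beside it, lay on both sides. Of 25 genes listed 24 were tested, and 12 were higher in shallow barcodes (Atf4, Atf5, Ddit3, Chac1, Sesn2, Slc7a11, Slc3a2, Slc7a1, Cebpb, Cebpg, Ddit4 and Myc), beside the 19.4% of all genes. Another 6 were higher in deep barcodes (Asns, Psat1, Phgdh, Psph, Shmt2 and Aldh18a1), beside 36.4%. Asns and Aldh18a1, with 5 and 2 UMIs in shallow barcodes of the 10% aliquot, passed the minimum mostly through their deep UMIs. Trib3, Mthfd2, Slc7a5, Eif4ebp1, Pck2 and Eif2ak4 met neither limit, and Pycr1 had too few UMIs. The first group holds transcription factors, stress regulators and amino acid transporters, and the second holds enzymes that make asparagine, serine, glycine and proline. Atf4 was at 480.0 CPM in shallow and 256 CPM in deep barcodes of the 10% aliquot (higher by 1.87-fold, 1.69 to 2.07), and higher by 2.23-fold (2.13 to 2.33) in unshared barcodes. Chac1, which degrades glutathione, was at 77.2 and 15.1 CPM (5.11-fold, 3.71 to 7.04, and 4.75-fold, 4.08 to 5.53 unshared). Asns, the asparagine synthetase, was at 4.49 CPM (5 UMIs) and 41.2 CPM (9.18-fold, 3.87 to 28.6, and 13.4-fold, 8.08 to 24.1 unshared), the reverse of Nars, which charges tRNA with that amino acid. Phgdh, which opens serine synthesis, was at 28.7 and 218 CPM (7.59-fold, 5.34 to 11.2, and 7.73-fold, 6.62 to 9.07 unshared). The stress genes given above were likewise higher in shallow barcodes, and their part in these differences was not tested.

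**Figure D3:**
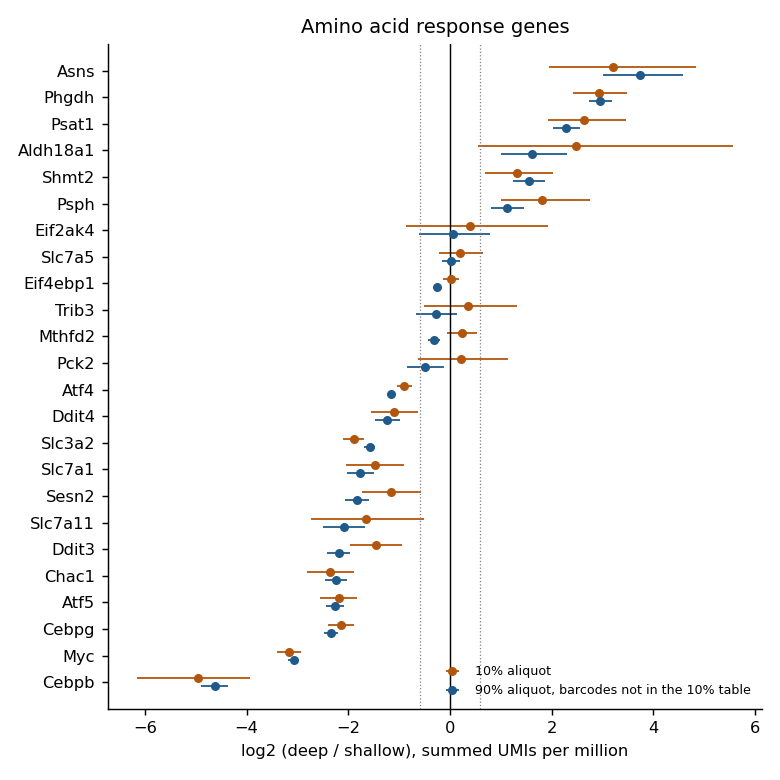
Log2 ratio of levels (CPM), deep over shallow barcodes, for the 24 tested amino acid response genes in the 10% aliquot and in unshared barcodes of the 90% aliquot, with exact 95% counting intervals and dotted lines at 1.5-fold. Enzymes of amino acid synthesis (Asns, Phgdh, Psat1) lie at the top, on the deep side, and Cebpb, Myc, Cebpg and Atf5 at the bottom, on the shallow side.

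The promoters of the synthetase genes were read for the letters TGATGNAA on both strands, a form of the composite element bound by Atf4 with a C/EBP partner. The windows were 250 bases before to 50 after the RefSeq gene start on GRCm38.p6, and 27 of the 36 genes had one, 13 cytosolic and 14 mitochondrial. The letters were in 3.97% of all 32851 promoters. By gene they were in 5 of the 13 cytosolic and in 0 of the 14 mitochondrial genes with a window. Aars2 had a further window, also without the letters, and counts by gene are not the same measure as the share of promoters. Of the cytosolic windows they were in 0 of 5 of enzymes higher in deep, 2 of 3 of enzymes higher in shallow barcodes and 3 of 5 of the rest. In the amino acid response list 6 of the 22 genes with a window held them, where Atf5, Psat1, Slc7a1 and Eif2ak4 had a further window. The 5 windows with the letters are printed as those the count rests on, in lower case with each match in capitals, 5′ to 3′ on the strand of the gene. They are chr8:111033592-111033891 on the plus strand for Aars, chr6:55037751-55038050 on the plus strand for Gars, chr13:49681880-49682179 on the plus strand for Iars, chr15:11399609-11399908 on the minus strand for Tars and chr4:129189653-129189952 on the plus strand for Yars.
Aars: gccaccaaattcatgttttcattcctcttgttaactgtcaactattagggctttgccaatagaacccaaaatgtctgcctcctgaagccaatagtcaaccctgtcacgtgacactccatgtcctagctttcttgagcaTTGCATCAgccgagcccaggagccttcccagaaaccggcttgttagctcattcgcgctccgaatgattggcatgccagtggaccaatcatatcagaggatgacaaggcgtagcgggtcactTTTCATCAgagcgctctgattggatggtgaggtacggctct
Gars: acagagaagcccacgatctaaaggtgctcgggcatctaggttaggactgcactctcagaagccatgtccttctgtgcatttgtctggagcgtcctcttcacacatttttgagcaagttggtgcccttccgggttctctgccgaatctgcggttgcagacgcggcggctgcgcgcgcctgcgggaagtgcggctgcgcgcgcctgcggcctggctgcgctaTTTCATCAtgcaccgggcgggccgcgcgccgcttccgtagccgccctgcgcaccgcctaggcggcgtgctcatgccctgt
Iars: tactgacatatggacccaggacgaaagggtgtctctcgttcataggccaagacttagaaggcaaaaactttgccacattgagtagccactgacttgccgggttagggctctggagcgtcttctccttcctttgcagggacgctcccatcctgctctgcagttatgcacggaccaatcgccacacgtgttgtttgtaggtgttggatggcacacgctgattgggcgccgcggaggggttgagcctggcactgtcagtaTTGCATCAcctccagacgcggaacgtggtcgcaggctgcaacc
Tars: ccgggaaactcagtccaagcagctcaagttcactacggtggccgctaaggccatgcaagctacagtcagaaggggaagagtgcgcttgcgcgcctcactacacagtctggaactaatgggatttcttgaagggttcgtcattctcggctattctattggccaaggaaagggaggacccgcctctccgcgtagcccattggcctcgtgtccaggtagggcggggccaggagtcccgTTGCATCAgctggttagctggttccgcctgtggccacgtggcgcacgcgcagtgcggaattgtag
Yars: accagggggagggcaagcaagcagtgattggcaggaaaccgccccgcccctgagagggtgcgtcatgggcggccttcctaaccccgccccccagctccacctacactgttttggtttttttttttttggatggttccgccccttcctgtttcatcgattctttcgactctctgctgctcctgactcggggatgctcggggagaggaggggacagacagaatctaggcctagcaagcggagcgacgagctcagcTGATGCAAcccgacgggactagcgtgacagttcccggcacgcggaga

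In Aars the letters began 112 bases before and 9 bases after the start, in Gars 30 and in Tars 15 bases before it, and in Iars 7 and in Yars 3 bases after it. A match describes the letters in this window alone and says nothing of binding in these cells. Aars and Yars were higher in shallow barcodes, while Gars leaned to deep and Tars and Iars to shallow barcodes without meeting the limit in both aliquots. Cars, Hars, Lars, Nars, Rars, Vars, Wars, Hars2 and Pars2 had no window.

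Long reads gave a second difference, in where the counted isoforms ended. The long-read table of the 10% aliquot listed 337 isoforms of 35 of the 36 genes (none of Mars2), of which 28 carry a reference name. It held 1382498 UMIs in the shallow and 4628237 in the deep barcodes. Levels from it are long-read UMIs per 1000000 long-read UMIs of the class. Each isoform was set against the stop codon of the longest complete coding transcript of its gene in Gencode vM21. An isoform whose 3′ end lies before that stop codon is called early-ending here. As listed it cannot encode the whole enzyme, and an isoform that passes the stop codon may still start inside the gene. Whether a listed end is the end of the RNA in the cell or arose in making the library was not tested. This division was made after values had been seen.

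Of the long-read UMIs of cytosolic synthetases, 43.3% (95% interval 41.6 to 45.1) in shallow and 16.0% (15.2 to 16.8) in deep barcodes came from early-ending isoforms, a difference of 27.3 points. Without Yars and Cars, which held the most such UMIs in shallow barcodes beside Eprs, the shares were 35.8% and 13.5%. For the mitochondrial enzymes they were 13.2% (8.70 to 18.8) and 8.58% (7.13 to 10.2). Over all genes of the table they were 10.2% and 5.15%. The cytosolic enzymes thus had early ends more often than all genes pooled in both classes, and the gap between classes was wider. The pooled shares weigh each gene by its UMIs, and the genes were not matched to the enzymes for length or level. The paper found a smaller share of full-length reads for longer transcripts, and the part of length here was not tested.

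Of the 16 enzymes with at least 50 long-read UMIs in each class, all cytosolic, 10 had an early-ending share at least 10 points higher in shallow barcodes (Aars, Cars, Eprs, Farsa, Gars, Hars, Lars, Rars, Sars and Yars), beside 20.6% of the 3194 genes compared. The share was higher in shallow barcodes at all in 15 of 16 and equal in Qars, against 48.5% of all genes. In 12, Lars not among them, the Newcombe interval of the difference lay above 0, a count not given for all genes. None of the 16 had a share at least 10 points higher in deep barcodes, beside only 72 of the 3194 genes compared. The median difference was 11.8 points over the 16 and 0 over all genes, which again were not matched for length or level.

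The enzymes ranged widely. Yars had an early-ending share of 67.8% (63.1 to 72.2) in shallow and 32.7% (28.0 to 37.7) in deep barcodes. In Farsa it was 39.5% (31.9 to 47.5) in shallow and 5.08% (3.04 to 7.92) in deep barcodes, and in Aars 49.2% (40.4 to 58.1) in shallow and 19.3% (14 to 25.5) in deep barcodes. Hars had 28.2% (19.0 to 39.0) in shallow and 4.08% (2.30 to 6.63) in deep barcodes, and Gars 29.1% (23.3 to 35.3) in shallow and 5.04% (3.70 to 6.68) in deep barcodes. In each of these 5 enzymes the share in deep barcodes was lower by at least 24 points, with intervals that did not overlap. In Eprs the share was high in both classes, at 76.5% (72.1 to 80.5) in shallow and 64.7% (61.2 to 68.1) in deep barcodes, as it was in Iars, at 65.5% (55.8 to 74.3) in shallow and 59.7% (52.6 to 66.5) in deep barcodes, with intervals that overlapped. Cars had 60.2% (55.3 to 65.0) in shallow and 47.8% (42.5 to 53.1) in deep barcodes, and Sars 27.9% (20.6 to 36.1) in shallow and 8.91% (6.57 to 11.7) in deep barcodes. Lars and Rars were higher in shallow barcodes by 11.7 points (-1.905 to 24.67) and 10.4 points (3.463 to 19.61), so the interval of Lars held 0. Nars had 15.6% (12.1 to 19.6) in shallow and 6.82% (4.97 to 9.07) in deep barcodes. At the other end no early-ending UMI was seen in Qars, in 56 shallow and 403 deep UMIs. Kars had 8.14% (3.33 to 16.1) in shallow and 0% (0 to 0.854) in deep barcodes, and Tars 7.23% (2.70 to 15.1) in shallow and 6.47% (4.0 to 9.82) in deep barcodes. Vars, with 32 UMIs in shallow barcodes and thus too few to be counted above, had 31.2% (16.1 to 50) in shallow and 0.522% (0.0633 to 1.87) in deep barcodes, and Wars, with 27, had 3.70% (0.0937 to 19.0) in shallow and 11.2% (6.91 to 17.0) in deep barcodes.

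**Figure D4:**
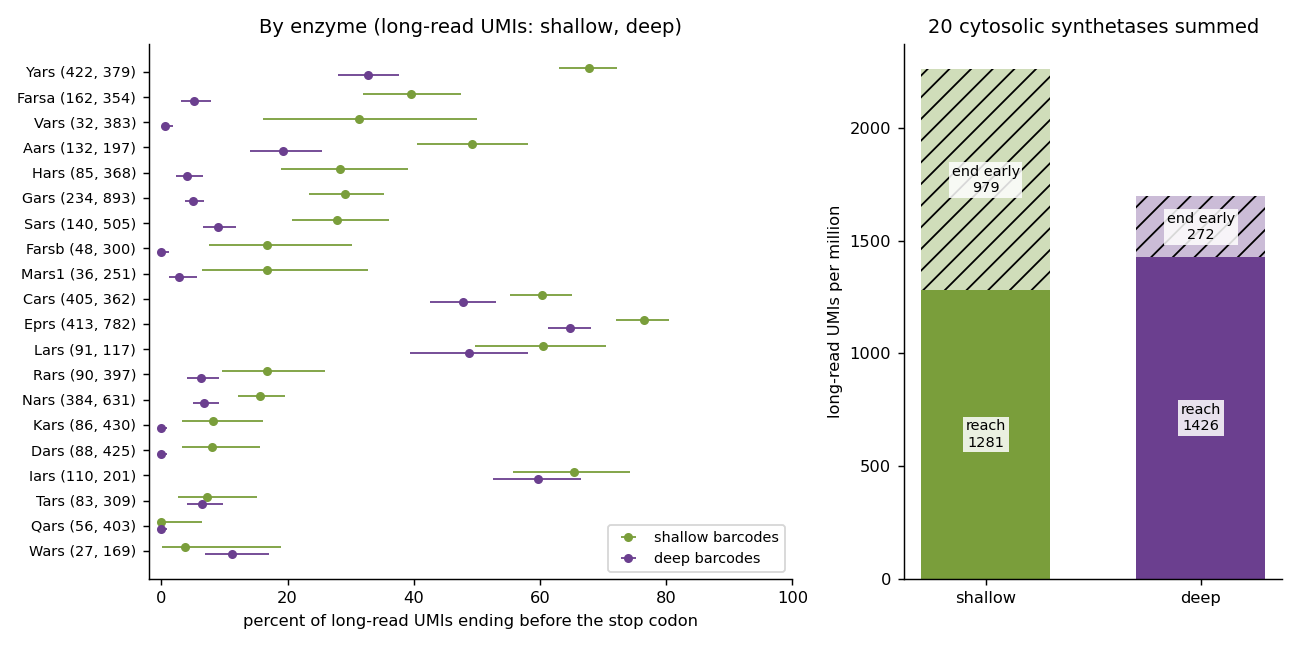
Left, percent of long-read UMIs that end before the stop codon for each cytosolic synthetase in shallow and deep barcodes of the 10% aliquot, with exact 95% intervals and the UMIs of each class in brackets. Right, the summed long-read level (CPM) of the 20 enzymes divided into isoforms that reach the stop codon and isoforms that end early; the part that reaches it is 1281 CPM in shallow and 1426 CPM in deep barcodes.

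Counting only isoforms that reach the stop codon changed the cytosolic sum. All long-read UMIs of the 20 enzymes summed to 2260 CPM in shallow and 1697 in deep barcodes, a ratio of 0.751 (0.721 to 0.783). Those that reach the stop codon summed to 1281 and 1426 CPM, a ratio of 1.11 (1.06 to 1.17), on the other side of 1. This and the stop-reaching ratios below are still divided by all long-read UMIs of the class. Over all genes of the table, stop-reaching isoforms held 89.78% of UMIs in shallow and 94.85% in deep barcodes. Dividing by stop-reaching UMIs alone would thus lower these ratios, and whether the cytosolic one would stay above 1 was not tested. The early-ending UMIs of the 20 enzymes summed to 978.7 and 271.6 CPM, a ratio of 0.278 (0.257 to 0.300). By whole-gene long-read UMIs 5 of 20 enzymes were at least 1.5-fold higher in deep barcodes (Farsb, Mars1, Qars, Vars and Wars), beside 40.3% of the 9588 genes with at least 20 long-read UMIs. Another 8 were higher in shallow barcodes (Aars, Cars, Eprs, Farsa, Iars, Lars, Nars and Yars), beside 28.0%. By stop-reaching UMIs 9 of 20 were higher in deep barcodes (Dars, Farsb, Gars, Hars, Kars, Mars1, Qars, Vars and Wars), beside 46.3% of 8458 genes, and 5 in shallow barcodes (Cars, Iars, Lars, Nars and Yars), beside 22.9%. The shares of all genes thus moved the same way as those of the enzymes. Aars, at 0.709 (0.530 to 0.958), and Eprs, at 0.850, were still higher in shallow barcodes by these UMIs but under the limit. Cars, Nars and Yars stayed past it, at ratios of 0.351 (0.283 to 0.435), 0.542 (0.472 to 0.623) and 0.560 (0.453 to 0.695). For the mitochondrial enzymes the ratio was 2.09 with all and 2.20 (1.87 to 2.60) with stop-reaching isoforms.

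The early-ending share differed with depth class and so did Malat1, an RNA that stays in the nucleus, and their part in it was not tested. It was 40.4% in shallow barcodes of 3000 to 6000 UMIs and 44.3% in those of 6000 to 15000 UMIs. In deep barcodes it was 19.3% from 20000 to 60000 UMIs and 14.8% above. The 21 barcodes of shallow depth with a UMI of Rrm2, Top2a or Cdk1 had 31.0% (26.3 to 36.1), between the classes, and barcodes under 500 UMIs had 22.7% (21.2 to 24.2). Malat1 was at 28776 CPM in shallow, 17523 CPM in those 21, 3406 CPM in deep barcodes and 8693 CPM under 500 UMIs. Within shallow barcodes Malat1 was at 31719 CPM from 3000 to 6000 UMIs and 27744 CPM from 6000 to 15000 UMIs, while the early-ending share was higher in the second range. Within deep barcodes it was at 6360 CPM from 20000 to 60000 UMIs and 2337 CPM above, where the share was lower too. Neat1, another nuclear RNA, was at 241.4, 262, 88.5 and 20.1 CPM in shallow barcodes, those 21, deep barcodes and barcodes under 500 UMIs. Its order was not that of the early-ending shares. Among barcodes with at least 10 cytosolic long-read UMIs the median share was 42.9% over 115 shallow and 14.1% over 78 deep barcodes, with quartiles of 22.4% and 57.6% in shallow and 8.47% and 23.5% in deep barcodes.

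**Figure D5:**
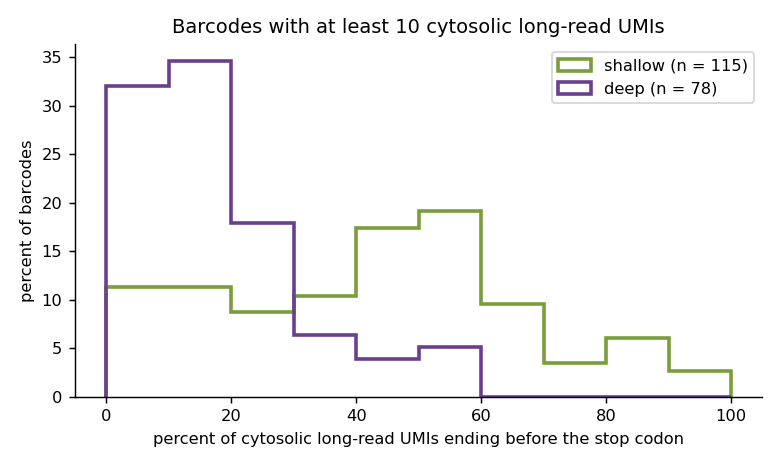
Distribution over barcodes of the percent of cytosolic synthetase long-read UMIs that end before the stop codon, in steps of 10 points, for shallow and deep barcodes of the 10% aliquot with at least 10 such UMIs. Deep barcodes lie below 60% and mostly below 30%, while shallow barcodes spread over the whole range with a median of 42.9%.

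Shares of single isoforms were compared next. In 6 of the 16 compared enzymes 1 isoform had shares at least 20 points apart in the classes (Aars, Farsa, Gars, Hars, Nars and Yars), beside 17.3% of 3265 genes. Of these, Gars and Hars were under the limit with isoforms of at least 15 UMIs alone, Gars with shallow barcodes of 3000 to 10000 UMIs, where Sars passed it, and Hars with deep barcodes of at least 30000 UMIs. In Yars an isoform spanning chr4:129189951-129198397, which stops in the front part of the gene, made up 48.6% (43.7 to 53.5) of the UMIs in shallow and 17.2% (13.5 to 21.3) in deep barcodes, from 46 and 21 barcodes. The isoform over the whole gene, chr4:129189951-129219236, made up 26.1% (21.9 to 30.5) and 53.8% (48.7 to 58.9). In Farsa, the reference transcript Farsa-201 made up 18.5% (12.9 to 25.4) in shallow and 56.5% (51.2 to 61.7) in deep barcodes. The Gars transcript Gars-201 made up 59.0% (52.4 to 65.3) and 82.2% (79.5 to 84.7). For Hars the isoform with the most UMIs, which covers the gene, made up 57.6% (46.5 to 68.3) and 78.0% (73.4 to 82.1), and for Nars 25.3% (21 to 29.9) and 53.6% (49.6 to 57.5). In these 5 enzymes the named form that passes the stop codon had the larger share in deep barcodes. In Nars the early-ending share differed by only 8.81 points, and another form over the same span went the other way, with 58 of 384 UMIs in shallow and 33 of 631 in deep barcodes.

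In Aars the isoform that differed most was set apart by its start. An isoform spanning chr8:111029775-111055563, which starts 3369 bases before the annotated gene inside Ddx19b on the opposite strand, made up 4.55% (1.69 to 9.63) of its UMIs in shallow (6 UMIs) and 26.4% (20.4 to 33.1) in deep barcodes (52 UMIs in 18 barcodes). A Farsa isoform likewise started 9823 bases before the annotated gene, at 1700122E12Rik on the same strand, and made up 1.24% (0.150 to 4.39) of its UMIs in shallow (2 UMIs) and 12.2% (8.93 to 16.0) in deep barcodes (43 UMIs). Cars had no shift of 20 points, but a form of 2 exons, chr7:143597868-143600056, made up 57.5% (52.6 to 62.4) and 41.7% (36.6 to 47.0) of its UMIs. Cars lies on the minus strand, so this form covers the start of the gene.

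Kars and Wars are known for isoforms that make different proteins. The Kars transcripts Kars-202 and Kars-203 have 1872 coding bases against 1785 in Kars-201, and the longer form carries the mitochondrial targeting sequence. Kars-202 and Kars-203 together held 6 UMIs in shallow and 55 in deep barcodes. Kars-201 made up 64.0% (52.9 to 74.0) of Kars UMIs in shallow and 61.4% (56.6 to 66.0) in deep barcodes, a difference of 2.56 points (-8.90 to 13.0). Wars-201 made up 96.3% (81.0 to 99.9) of 27 UMIs in shallow and 67.5% (59.8 to 74.5) of 169 UMIs in deep barcodes.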

How the data were processed

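One 10x Chromium v2 capture of mouse muscle stem cells gave 2 short-read libraries and 1 nanopore library. The deposited short-read values are UMI counts per gene and barcode, which the authors made with scPipe, and the deposited long-read values are UMI counts per isoform and barcode of the 10% aliquot, which the authors made with FLAMES (minimap2 alignment to mm10, Gencode vM24, isoforms of under 5 full-length reads discarded, UMIs within 2 edits merged). The submitters' processing notes name build GRCm38.p6, Cell Ranger 1.3 and minimap2 2.17. Further deposited tables of barcode counts served only to pair cell names with barcode sequences, and 0 columns of per-sample values were left unused. Coordinates come from Gencode vM21 on the same assembly.

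UMIs were summed over the barcodes of a class and divided by all UMIs of that class. Ratios carry exact conditional binomial intervals, shares exact Clopper-Pearson intervals and differences of shares Newcombe intervals, all at 95% and for counting error only. A floor of 3 counts stood in for 0 UMIs only where a value is given against the floor. The calls, for the enzymes and for all genes, did not use it, so a gene with 0 UMIs in 1 class met the fold limit in that aliquot. A gene was called at 1.5-fold in both aliquots with at least 20 UMIs in each, and an isoform shift at 20 points with at least 50 UMIs in each class. Shares of barcodes were thinned to 3000 UMIs by calculation. With 1 capture there was no test between conditions and no p-value. Summed depth was 1114508 UMIs in shallow and 5099209 in deep barcodes of the 10% aliquot, and 6452314 and 29875734 in the 90% aliquot, so in the smallest class the floor of 3 counts is 2.69 CPM and the exact interval of 0 UMIs reaches 3.31 CPM. Doublets were looked for with the Scrublet function of scanpy 1.11.5 among barcodes with at least 1000 UMIs, 330 in the 10% and 2420 in the 90% aliquot. It marked 8 and 3, which were kept, and the second share is too low to show that the caller worked.

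Members, lists and limits were chosen with earlier results of these data known. All 36 enzymes are accounted for. One further list of pathway genes is not reported here. Those named in full are the cytosolic ones, the 5 mitochondrial ones with the most UMIs, those called, and isoforms with a shift, plus Kars, Gars and Wars. The interval code was tested on simulated data. Alternatives changed the class limits, barcodes, scaling and isoform limits. Python 3.11.15, numpy 2.4.6, scipy 1.17.1, pandas 2.3.3 and matplotlib 3.10.9 were used. Promoter sequences are RefSeq's on GRCm38.p6.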

Additional observations from a re-analysis of the deposited data

Results flagged for a closer look

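Barcodes that belong to neither class also held synthetase UMIs. In the 10% aliquot 1755 such barcodes held 914 of the 7316 short-read UMIs of the 36 genes, and in the 90% aliquot 1152 barcodes held 3177 of 40239. In the long-read table the 1755 barcodes held 5451 of 17950 UMIs, a share of 30.4%. Their median total was 644 long-read UMIs against 17 short-read UMIs per barcode, so the long-read and short-read totals of the same barcode names were far apart there. These UMIs are above the 3 counts that a count of 0 allows, and no comparison used them other than the values given for barcodes under 500 UMIs and for the 21 barcodes with a UMI of Rrm2, Top2a or Cdk1.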

How the results depend on the processing

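Of 599 recomputed values, 580 kept their direction and stayed within the counting interval of the reported value or, for counts, within 1.5 times of it. The 8 cytosolic enzymes higher in deep and the 5 higher in shallow barcodes were the same enzymes under all 8 alternatives of barcodes and scaling. Without the requirement on Rrm2, Top2a and Cdk1 the mitochondrial ratio was 0.782 in the 10% and 1.315 in the 90% aliquot, Lars2 was at 0.3604 and 0.3803, Vars at 2.29 and 3.766, and Cars2 at 2.773 in the 90% aliquot, and Lars2 was called higher in shallow barcodes. In the 90% aliquot the mitochondrial ratio was 1.789 without shared barcodes and 2.184 without Lars2, both chosen after seeing the data, and Lars2 was at 0.7845 with deep barcodes of at least 30000 UMIs. Of the mitochondrial calls, Nars2 was lost and Yars2 gained with shallow barcodes of 3000 to 10000 UMIs, and Nars2 was lost without immune barcodes. Median-of-ratios scaling gave cytosolic ratios of 0.8965 and 0.9205. It sets to 0 a median over genes that was -0.10 (log2, deep over shallow) in the 10% and 0.04 in the 90% aliquot. This is not the median over the genes tested for the calls, which was 0.28 and 0.33. Long-read UMIs gave a cytosolic ratio of 0.7512. Those of isoforms that reach the stop codon, chosen after seeing the data, gave 1.113 over all long-read UMIs of the class. Among the 6 enzymes with an isoform shift, Gars and Hars were lost with isoforms of at least 15 UMIs, Gars with the lower shallow maximum and Hars with the higher deep minimum. Enzymes with an isoform shift numbered 12 of 16 at 10 points, beside 53.5% of genes, and 2 of 16 at 30 points, beside 5.636%. They numbered 9 of 23 with 20 UMIs per class, beside 29.3%, and 0 of 5 with reference-named isoforms alone, beside 5.645%. The early-ending difference was 22.34 points without Yars and Cars. The cause of these changes was not tested beyond what each alternative leaves out. No paired analysis was possible because the study has 1 capture and no replicates. Depth limits the mitochondrial enzymes, with 80 UMIs in all in shallow barcodes of the 10% aliquot.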
